A study of Mus musculus with 2 samples.

Results

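The HSP70 and HSP90 groups of molecular chaperones were followed through total RNA-seq of mouse fetal liver. Members were taken by symbol: the rows of Hspa8, Hspa5, Hspa9, Hspa4, Hspa1a, Hspa1b, Hsp90aa1, Hsp90ab1, Hspd1 and Hspe1 in the gene tables gave 10 of 43346 mouse genes. All 10 are protein-coding, as are 21474 genes of the tables. Hspd1 and Hspe1 encode the chaperonin HSP60 and its HSP10 lid, which fold proteins after HSP70 has handed them on, and are listed here with the HSP70 and HSP90 genes. The tissue was liver from healthy B6NCrl embryos, taken on day 11.5 of development. Male and female embryos were pooled, and no genetic change or treatment is stated. There were 2 libraries in 1 group, labelled as biological replicates. Replicate 1 pooled 109 embryos, and the number behind replicate 2 was not given in the sources used here. Each library was made from 10 ng of RNA. With 1 group, no condition was compared: the comparisons below are between genes within a library and between the 2 libraries.

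HSP70 proteins bind short hydrophobic stretches of unfolded proteins and release them in a cycle driven by ATP. J proteins start that cycle, and nucleotide exchange factors end it. HSP90 acts later, on clients that are nearly folded, such as steroid receptors and kinases, together with a set of co-chaperones. Some members are made in nearly every cell at all times and are called constitutive here: Hspa8 and Hsp90ab1 in the cytosol, Hspa4 as a partner of cytosolic HSP70, Hspa5 in the endoplasmic reticulum (ER), and Hspa9, Hspd1 and Hspe1 in mitochondria. Hspa1a, Hspa1b and Hsp90aa1 are known as heat-inducible genes, switched on by heat shock factor 1 when proteins unfold. Fetal liver at this stage holds hepatoblasts and a large population of red cell precursors, both of which make much protein.

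The libraries held 34344230 and 31477397 estimated counts, of which 31721267 and 29750192 were on mouse genes. Spiked-in control RNAs took 14.6% of all TPM (a level corrected for transcript length and scaled to a fixed total per library) in replicate 1 and 11.1% in replicate 2, and mouse genes took 85.4% and 88.9%. The markers of the labelled tissue were present: all 6 hepatoblast markers and all 6 red cell markers were at 1 TPM or more in both libraries, with the liver protein gene Afp at 4698 and 5457 TPM. Of all 21474 protein-coding genes, 12165 were at that level in both libraries. Markers of heart muscle, an organ next to the liver bud, were all 8 higher in replicate 1, and summed to 280 TPM there and 123 TPM in replicate 2. None of these 8 was at 0 in either library.

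Constitutive chaperones were among the more abundant messages of the liver, and the heat-inducible genes Hspa1a and Hspa1b were the lowest members. The 10 members together held 7931 TPM in replicate 1 and 8729 TPM in replicate 2, which was 1.04% and 1.08% of all protein-coding TPM. The median of the 7 constitutive members was 729 ± 5.49 TPM (SD, n = 2), and that of the 3 heat-inducible members was 4.07 ± 0.382 TPM (SD, n = 2), beside a median of 2.82 and 2.87 TPM over all protein-coding genes. The constitutive median fell on Hspa5 in replicate 1 (732.86 TPM) and on Hspe1 in replicate 2 (725.09 TPM). Its SD therefore does not give the spread of single members. On TPM as deposited, that spread ran from 1.82% of the mean for Hspe1 to 11.8% for Hspa9. The deposited total includes the spike-ins, whose share differed between the libraries. With spike-ins left out of the total, Hspe1 was at 871 and 815 TPM and Hsp90ab1 at 1605 and 1675 TPM. Hspe1 was then not the steadiest member. The heat-inducible median hides a wide gap, because Hsp90aa1, labelled heat-inducible, stood at the level of the constitutive genes. No p-value is given for any order of genes, since an exact sign-flip test of 2 libraries cannot go below 0.5. Instead, 2 genes were called ordered if they kept 1 order in both libraries, with deposited intervals apart each time and a mean log2 ratio larger than its change from library to library. By that rule 16 of 18 pairs were ordered, among them 7 of the 9 pairs of neighbours in the order of mean level.

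**Figure D1:**
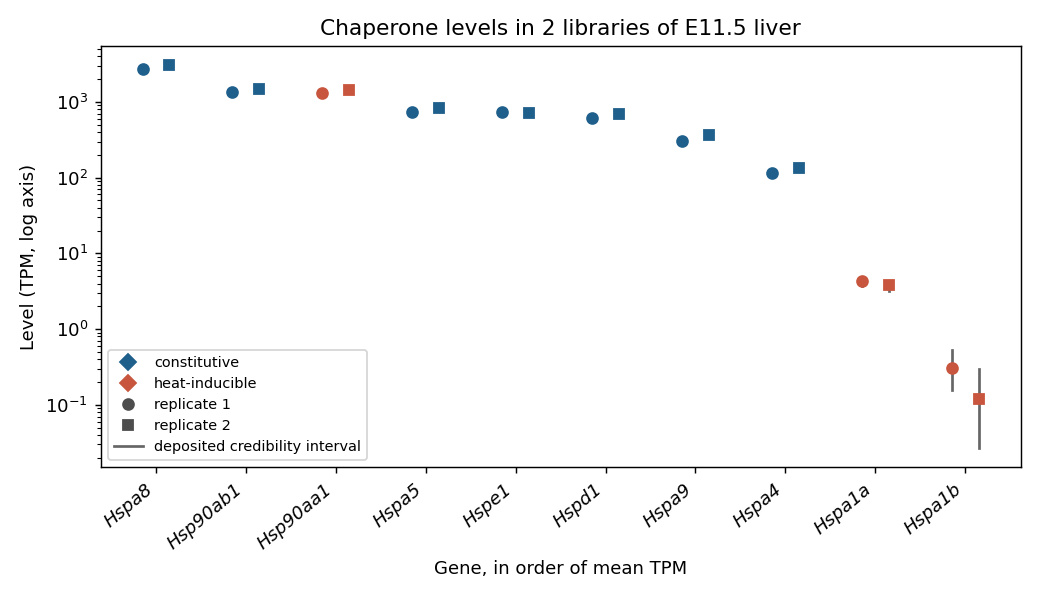
Level of each gene in TPM on a log axis, in order of mean TPM, for replicate 1 (circles) and replicate 2 (squares), with the deposited credibility interval, centred on the posterior mean, as a grey line; blue marks constitutive genes and red heat-inducible ones. The 8 most abundant genes lie between 116.73 and 3068.29 TPM, Hspa1a lies near 4 TPM and Hspa1b below 1 TPM.

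In the cytosol, Hspa8 was the highest member. It encodes HSC70, the everyday HSP70 of the cytosol, which also strips clathrin from coated vesicles (ENSMUSG00000015656.12, chr9:40800984-40810087, GRCm38, plus strand). Hspa8 had 2731.76 TPM in replicate 1 and 3068.29 in replicate 2, or 2900 ± 238 TPM (SD, n = 2), from 109487 and 110664 estimated counts. These levels ranked it 18 and 17 among protein-coding genes, and it made up 34.4% and 35.2% of the members' summed TPM. Of that level, 72.0% and 74.4% was carried by its full-length coding transcripts, Hspa8-201 and Hspa8-202, which have 9 exons each. Another 24.7% and 23.2% was assigned to Hspa8-204, a retained-intron transcript of 456 bases (chr9:40802342-40802912, GRCm38). Because TPM divides by length, that short transcript held only 5.68% and 5.17% of the gene's estimated counts.

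Hspa8 also has many processed copies in the genome. Of the 100-base windows of Hspa8-202, 73.9% occurred unchanged in a transcript of at least 1 of 9 other genes, where reads of the same 100 bases cannot be told apart. Windows were compared in GENCODE M21, and not all of the 9 have a deposited value. The processed pseudogene Gm15459 shared 68.0% of the windows and was listed at 1.63 and 1.85 TPM. A second pseudogene, Gm8355, shared 35.3% and was listed at 127.53 and 114.67 TPM, from 2163 and 1697 estimated counts, which equals 1.98% and 1.53% of the counts on Hspa8 itself. The long noncoding gene Gm26825 shared as many windows as Gm15459 and held 1083 and 1231 estimated counts. Adding the pseudogene rows to Hspa8 gave 3023 TPM, a change smaller than the spread between the libraries. Its introns also host 3 small nucleolar RNA genes, Snord14c, Snord14d and Snord14e, of 86 to 90 bases, and all 3 were listed at 0 counts in both libraries; RNA under 200 bases was outside the size range the labels give.

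Hspa1a and Hspa1b encode the heat-inducible HSP70 of the cytosol, nearly the same protein from neighbouring intronless genes (ENSMUSG00000091971.3, chr17:34969190-34972156, and ENSMUSG00000090877.3, chr17:34956436-34959238, GRCm38, minus strand). A stretch of 9951 bases lies between them. Hspa1a reached 4.34 TPM in replicate 1 and 3.80 in replicate 2, from 321.11 and 245.62 estimated counts. That placed it in the middle of the protein-coding genes, at the 54.3 and 52.7 percentiles. Hspa1b was at 0.31 and 0.12 TPM, from 21.7 and 7.05 estimated counts, at the 35.1 and 30.1 percentiles.

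Hspa8 exceeded the summed Hspa1a and Hspa1b 575-fold in replicate 1 and 763-fold in replicate 2, a log2 ratio of TPM of 9.37 ± 0.29 (SD, n = 2); on estimated counts, which ignore length, the log2 ratio was 8.55. The ratio of Hspa1a over Hspa1b was 10.8-fold and 17.7-fold, with a log2 mean of 3.79 ± 0.50 (SD, n = 2; 0.1 TPM was added to each value before the logarithm). The latter moved to 4.49 on estimated counts and to 2.06 with 1 TPM added. Both pairs were ordered. The split between Hspa1a and Hspa1b rests on how the authors' quantification divided reads of near-identical sequence. Their coding sequences of 1926 and 1929 bases, stop codon included, differed at 8 aligned bases and by a gap of 3 bases, an identity of 99.4%. Of the 1827 windows of 100 bases inside the Hspa1a coding sequence, 1245 (68.1%) occurred unchanged in Hspa1b, while 0 of 711 windows in its 3′ untranslated region did. The summed estimated counts of both genes, 342.81 and 252.67, do not depend on the split between them; their summed TPM was 4.65 and 3.92. The antisense gene Gm10501 shared 134 windows with Hspa1a and held 76.13 and 46.96 estimated counts.

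The similarity extends into the promoters, which are shown to compare the upstream DNA of this weakly expressed pair. Each line gives the 150 bases before the RefSeq start site, 5′ to 3′ on the strand of the gene, from RefSeq on GRCm38.p6; capitals mark a heat shock element of 2 units (GAA and TTC with 2 bases between) and, after it, a CCAAT box read on the other strand. Hspa1a lies at chr17:34972157-34972306 and Hspa1b at chr17:34959239-34959388.
Hspa1a: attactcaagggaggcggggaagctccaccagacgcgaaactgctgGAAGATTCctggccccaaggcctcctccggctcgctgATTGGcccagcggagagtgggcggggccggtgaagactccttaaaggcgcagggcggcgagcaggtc
Hspa1b: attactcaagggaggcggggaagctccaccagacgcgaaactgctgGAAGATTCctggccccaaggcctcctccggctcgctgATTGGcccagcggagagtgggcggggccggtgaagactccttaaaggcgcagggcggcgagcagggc
Over the whole window of 300 bases, 250 before the start and 50 after it, the pair differed at 4 positions and was 98.7% identical. Counted from 1 at the 5′ end of the window, with the Hspa1a base first, the differences were C44T, T47C, T249G and C276T. In both genes the heat shock element lay 104 to 97 bases before the start and the CCAAT box 67 to 63 bases before it. An element of 2 units occurred in 15.1% of 32851 promoter windows of that length and a CCAAT box in 37.4%, searched on both strands. The element of 3 alternating units was not found in either window, with no mismatch to GAA or TTC allowed. That exact element occurred in 198 windows, or 0.603%. Imperfect units were not searched for in any window. The 2-unit search was added after the 3-unit search had been seen.

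HSP90 of the cytosol comes from 2 genes, Hsp90ab1 (HSP90 beta, the constitutive form) and Hsp90aa1 (HSP90 alpha, the heat-inducible form). Hsp90ab1 (ENSMUSG00000023944.10, chr17:45567775-45573271, GRCm38, minus strand) had 1371.09 TPM in replicate 1 and 1489.69 in replicate 2. Hsp90aa1 (ENSMUSG00000021270.9, chr12:110690605-110702728, GRCm38, minus strand) was at 1307.53 and 1435.79 TPM. The pair stood side by side at ranks 64 and 66 in replicate 1 and 55 and 59 in replicate 2, with Hsp90ab1 slightly higher in each library.

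Summed over all transcripts, Hsp90ab1 exceeded Hsp90aa1 1.04-fold, a log2 ratio of TPM of 0.06 ± 0.01 (SD, n = 2). The transcripts behind the levels differed between the pair. Full-length coding transcripts carried 92.7% and 89.4% of the TPM of Hsp90ab1 but 44.1% and 43.0% of that of Hsp90aa1. For Hsp90aa1, a further 47.2% and 48.6% of TPM was assigned to Hsp90aa1-208, a transcript of 711 bases whose coding sequence is annotated as incomplete (chr12:110694629-110702728, GRCm38). It has 4 exons where the full-length transcripts have 11, 85.1% of its bases also lie in exons of the full-length transcripts, and it held 16.9% and 17.8% of the gene's estimated counts. On full-length coding transcripts alone, an alternative added after the data were seen, Hsp90ab1 was at 1302 ± 43.5 TPM and Hsp90aa1 at 597 ± 28.9 TPM (SD, n = 2). The log2 ratio was then 1.13 ± 0.02 (SD, n = 2), or 2.18-fold. Hsp90aa1-202 shared 47.5% of its 100-base windows with other genes, 39.6% with the transcribed pseudogene Gm12346 (5.79 and 5.92 TPM), and Hsp90ab1-201 shared none. With the pseudogene rows added to Hsp90aa1, the log2 ratio was 0.054 and the pair no longer met the rule for order.

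**Figure D2:**
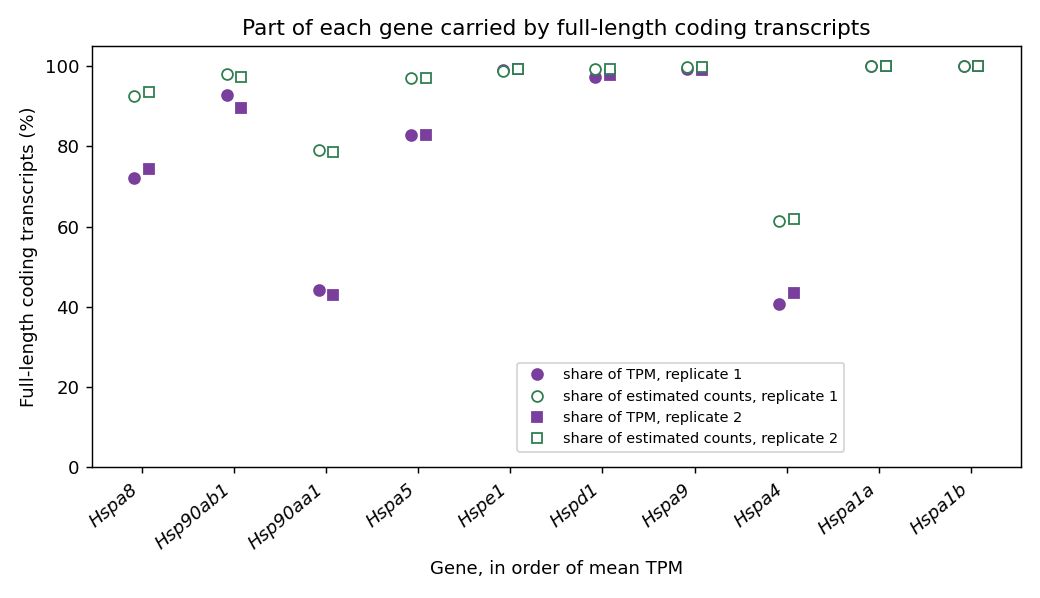
Share of each gene carried by full-length coding transcripts, in percent of its TPM (filled purple) and of its estimated counts (open green), for replicate 1 (circles) and replicate 2 (squares), with genes in order of mean TPM. Hsp90aa1 and Hspa4 lie lowest on TPM, at 40.8% to 44.1%, and the purple points of Hspa8 and Hspa5 lie below the green ones.

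Compared across the groups, Hspa8 exceeded Hsp90ab1 2.03-fold on TPM and 1.63-fold on full-length coding transcripts. Hsp90b1, the HSP90 of the ER, was at 454.05 and 492.36 TPM, and Trap1, that of mitochondria, at 112.05 and 126.52 TPM. Hsp90ab1 exceeded Trap1 12.2-fold and 11.8-fold. Each cytosolic HSP90 message was higher than that of either organelle in both libraries.

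Hspa4 encodes a cytosolic HSP110-type protein, which acts on HSP70 as a nucleotide exchange factor (ENSMUSG00000020361.9, chr11:53259814-53300457, GRCm38, minus strand). It had 116.73 TPM in replicate 1 and 132.64 in replicate 2, the lowest of the constitutive members, and Hspa8 exceeded it 23.2-fold, a log2 ratio of 4.54 that was 5.34 on full-length coding transcripts and 3.57 on estimated counts. Its full-length transcript of 19 exons carried 40.8% and 43.5% of that level. The rest was mostly Hspa4-203, a noncoding transcript of 3075 bases with 34.5% and 37.3%, and Hspa4-202, a retained-intron transcript of 630 bases with 24.7% and 19.2%. This split decides its order against Hsph1, the other HSP110 gene. On all transcripts Hspa4 exceeded Hsph1 1.53-fold, and on full-length coding transcripts it was lower, with a log2 ratio of -0.61. The RefSeq promoter window of Hspa4 held none of the motifs searched.

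In the ER, Hspa5 encodes BiP, the HSP70 that receives proteins entering the secretory pathway and a well-known target of the unfolded protein response (ENSMUSG00000026864.9, chr2:34771970-34777547, GRCm38, plus strand). It had 732.86 TPM in replicate 1 and 824.94 in replicate 2, or 779 ± 65.1 TPM (SD, n = 2). Hspa8 exceeded it 3.73-fold and 3.72-fold, and Hspa5 exceeded Hsp90b1, its partner in the ER, 1.61-fold and 1.68-fold. Full-length coding transcripts carried 82.9% and 82.8% of its TPM. Hspa5-204, a transcript of 477 bases annotated for nonsense-mediated decay, carried 16.2% in both libraries and 2.83% and 2.82% of the counts. No 100-base window of its main transcript occurred in another gene. Summed over transcripts Hsp90aa1 exceeded Hspa5 1.76-fold, but on full-length coding transcripts Hspa5 was 1.08-fold higher.

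The promoter window of Hspa5 held 1 exact ER stress element, CCAAT and CCACG with 9 bases between. This is a kind of site through which the unfolded protein response is known to act on this gene. Imperfect copies were not searched for. The element is shown with its flanks, on the plus strand, from RefSeq on GRCm38.p6, at chr2:34772020-34772049; capitals mark the element.
Hspa5: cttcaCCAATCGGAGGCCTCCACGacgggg
It lay 65 to 47 bases before the RefSeq start. The annotated gene begins farther upstream, at 34771970, so its span includes the element. Of 32851 windows, 39 held this element (0.119%). Hspa5 also held 4 CCAAT boxes, 1 of them within the element.

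The mitochondrial members import and fold proteins of the matrix: Hspa9 (mortalin, the HSP70 of the import motor), Hspd1 (HSP60) and Hspe1 (HSP10). Hspa9 (ENSMUSG00000024359.8) had 306.11 TPM in replicate 1 and 361.67 in replicate 2. Hspd1 (ENSMUSG00000025980.10, chr1:55077835-55088243, GRCm38, minus strand) was at 616.3 and 687.05 TPM. Hspe1 (ENSMUSG00000073676.4, chr1:55088132-55091307, GRCm38, plus strand) was at 744 and 725.09 TPM. The chaperonin genes stood above Hspa9 in both libraries, and Hspa9 was at 0.511 of the level of Hspd1. Full-length coding transcripts carried 97.3% to 99.3% of TPM in all 3 genes. Hspa9 hosts 2 small nucleolar RNA genes, both listed at 0 counts.

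HSP60 and HSP10 work as rings of equal subunit number, and their messages were close in level and could not be ordered on TPM. The log2 ratio of Hspd1 over Hspe1 was -0.27 in replicate 1 and -0.08 in replicate 2, a mean of -0.17 ± 0.14 (SD, n = 2). On full-length coding transcripts the mean was -0.20, which narrowly exceeded the change between the libraries, so the pair then met that part of the rule, with Hspe1 higher. Levels of Hspa5 and Hspe1 could not be ordered either, with a log2 ratio of 0.08 ± 0.15 (SD, n = 2) and a different order in each library; that ratio was -0.18 on full-length coding transcripts, still not ordered, and 1.76 on estimated counts. Counting reads without regard to length turned the direction for Hspd1, whose transcript of 2423 bases is longer than that of Hspe1 at 774 bases: the log2 ratio of estimated counts was 1.58. Hspd1 shared 26.9% of its windows with other genes, 25.8% with the pseudogene Hspd1-ps3 (8.92 and 9.58 TPM). Hspe1 shared 22.4%, of which most (20.4% of its windows) was with a gene that has no deposited value.

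Hspd1 and Hspe1 lie head to head. The full-length transcripts Hspd1-201 and Hspe1-201 start at 55088024 and 55088132 and run apart, and the interval between them held an 18-base run of 4 alternating GAA and TTC units. It is shown because the 3-unit heat shock element was rare among promoters and was found here between 2 genes classed as constitutive. That class says nothing on their induction by heat, which was not measured here. The sequence is on the plus strand, from RefSeq on GRCm38.p6, at chr1:55088053-55088082, and capitals mark the run.
Hspd1-Hspe1 interval: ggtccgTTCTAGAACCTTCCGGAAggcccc
The run lay 34 bases from the start of Hspd1-201 and 55 bases from that of Hspe1-201, outside both. A minor transcript, Hspd1-202, with an incomplete coding sequence and 0.771% and 0.687% of the counts of Hspd1, starts farther upstream and covers it. Promoter windows were described for 6 of the 10 members: Hspa1a, Hspa1b, Hspa4, Hspa5, Hspd1 and Hspe1. Hspa9 was left out of this search. A motif match describes letters in a window, and no binding was measured.

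**Figure D3:**
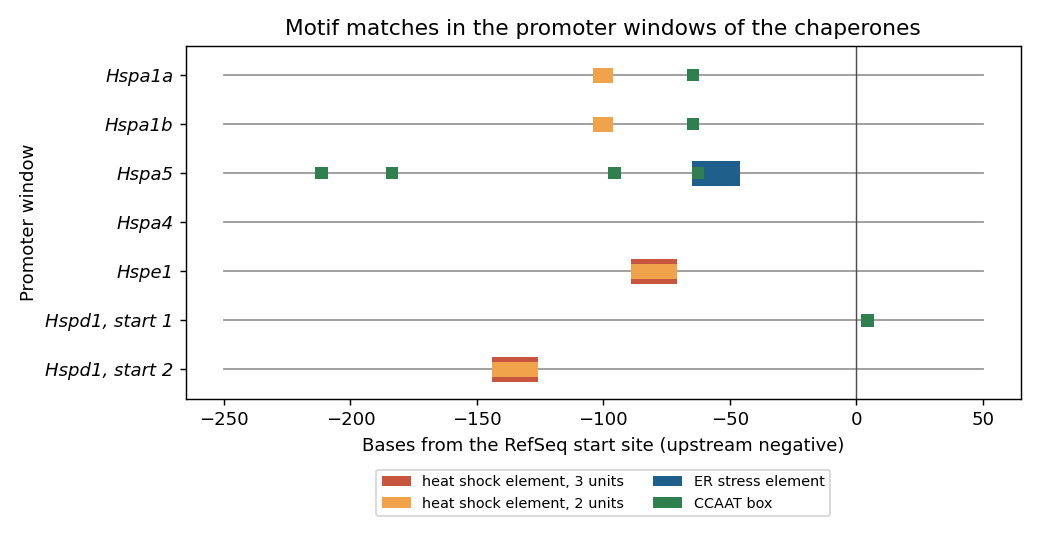
Motif matches in promoter windows of 6 members, drawn from 250 bases before to 50 bases after the RefSeq start site, with Hspd1 drawn for 2 starts; the vertical line marks the start. The element of 3 alternating units is seen at Hspe1 and at the second Hspd1 start, which share 1 stretch of DNA, and the 2-unit element at the same distance in Hspa1a and Hspa1b.

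Between the libraries, the abundant members moved little. After TMM scaling of estimated counts, the log2 ratio of replicate 1 over replicate 2 was 0.00 for Hsp90ab1, -0.02 for Hsp90aa1, -0.13 for Hspa8 and 0.12 for Hspe1. Hspa5, Hspd1, Hspa9 and Hspa4 were at -0.09, -0.08, -0.16 and -0.18. Among the 1264 genes of the tables at a mean of 5000 or more counts, 95% had log2 ratios from -0.24 to 0.20, and all 8 members lay inside that range. Of the 8, 6 were lower in replicate 1 by TMM scaling. Those 1264 genes leaned the same way, with a median log2 ratio of -0.056, so this lean is not particular to the members. Hsp90aa1 turned on total counts, with a ratio of 0.0016, and Hsp90ab1 turned on TPM as deposited, with -0.12.

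The low pair leaned the other way, at far fewer counts. Hspa1a was higher in replicate 1 by a log2 ratio of 0.27 (95% exact binomial interval 0.03 to 0.52), and Hspa1b by 1.44 (0.26 to 3.01). These intervals cover counting error only. Hspa1b was the only 1 of the 10 members at least 2-fold apart, beside 2.91% of genes (483 of 16607 at a mean of at least 10 counts) that were at least 2-fold higher in replicate 1. On deposited TPM, with 0.1 TPM added, the ratio of Hspa1b was 0.90, under 2-fold. No member was at least 2-fold higher in replicate 2, beside 1.46% of genes (243). With the reads of both genes summed, the ratio was 0.33 (0.09 to 0.57), or 1.25-fold. Smaller differences than these were seen in 73.0% of the 16607 genes for Hspa1a and in 77.6% for the sum. Of those genes, 95% had log2 ratios from -0.78 to 1.05. That spread reaches down to genes at a mean of 10 counts, and at 5000 or more counts it was -0.24 to 0.20. It therefore cannot place Hspa1a or the sum among genes of like counts. The heart muscle markers moved the same way, and their part in the difference was not tested.

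**Figure D4:**
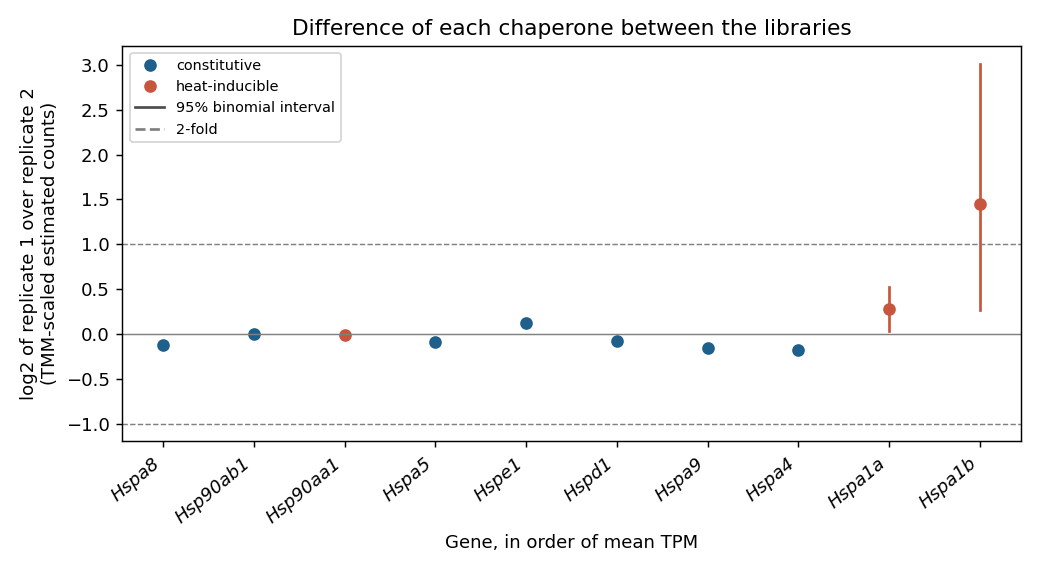
Log2 ratio of replicate 1 over replicate 2 for each gene, from TMM-scaled estimated counts, with the 95% exact binomial interval as a vertical line and 2-fold as dashed lines; genes are in order of mean TPM. The 8 more abundant genes lie close to 0 with intervals inside their markers, and Hspa1b lies above the 2-fold line with an interval from 0.26 to 3.01.

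The partners of the chaperone cycle were widely present. Of 76 matched genes in the 11 wider chaperone lists, 69 were at 1 TPM or more in both libraries, beside 12165 of 21474 protein-coding genes. That share is the background for each count of detected genes below. All 13 J proteins were detected, with a median of 79.1 ± 5.02 TPM (SD, n = 2), led by Dnaja1 (291.78 and 333.65 TPM), Dnaja2 (120.24 and 135.01 TPM) and Dnajb6 (106.47 and 120.7 TPM). All 9 nucleotide exchange factors were detected, with Bag1 highest at 164.5 and 171.07 TPM, followed by Hspbp1 (95.09 and 98.65 TPM) and Bag2 (78.37 and 86.8 TPM). Hspa8 exceeded on TPM every J protein and exchange factor listed.

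HSP90 co-chaperones were all 12 detected, at a median of 160 ± 7.63 TPM (SD, n = 2). The immunophilin Fkbp4, a partner of steroid receptors, was at 412.48 and 461.05 TPM, p23 (Ptges3) at 402.73 and 457.01 TPM, and Stip1, which links HSP70 to HSP90, at 264.15 and 302.65 TPM. The 8 subunits of the cytosolic chaperonin TRiC, which folds actin and tubulin, had a median of 471 ± 55.7 TPM (SD, n = 2), led by Cct3 (532.69 and 603.84 TPM), Cct5 (509.52 and 599.43 TPM) and Cct8 (465.39 and 551.95 TPM). For the 9 ER folding genes the median was 276 ± 10.7 TPM (SD, n = 2), led by the calcium-binding chaperone Calr (653.32 and 715.23 TPM), P4hb (501.03 and 552.72 TPM) and Pdia3 (369.63 and 430.07 TPM). The 4 genes listed under mitochondrial import were all detected, with Dnajc19 (124.58 and 133.33 TPM), Timm44 (78.58 and 79.17 TPM) and Pam16 (80.36 and 72.71 TPM) highest. Hscb, on that list but not itself an import gene, was at 29.06 and 35.51 TPM.

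Outside the 10 members, the median of the HSP70 group was below every constitutive member but above the median protein-coding gene. Detection held for 6 of 8 matched genes, and the median over the list came to 10.6 ± 0.672 TPM (SD, n = 2); Hsph1 was highest (74.08 and 89.26 TPM), followed by the ER protein gene Hyou1 (27.52 and 30.28 TPM) and Hspa4l (16.51 and 20.28 TPM). Hspa12a was below 1 TPM in both libraries, at 0.65 and 0.64. Hspa1l, which lies beside Hspa1a and shares 134 windows with it, was at 0.50 and 1.22 TPM and was higher in replicate 2, opposite to its neighbours. Hspa14 was not analysed here, nor was the red cell chaperone Ahsp.

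Of the heat shock factors, Hsf1, the main heat shock regulator, was at 54.36 and 52.32 TPM, Hsf2 at 13.14 and 13.31 TPM, and Hsf4 at 0 and 0.16 TPM. Immediate-early genes are known to rise within minutes of tissue handling; 9 of the 10 passed 1 TPM in both libraries, and the median over all 10 came to 9.32 ± 0.590 TPM (SD, n = 2). Ier2 (35.47 and 40.33 TPM), Junb (15.84 and 18.33 TPM) and Dusp1 (14.21 and 18.26 TPM) were the highest of them, and Fosb was below 1 TPM in both libraries, at 0.05 and 0.02.

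Small heat shock proteins, which hold unfolded proteins without ATP, had the lowest median of the lists, at 1.85 ± 0.590 TPM (SD, n = 2). Of the 8, 4 were detected, near the share over all protein-coding genes (12165 of 21474). Hspb1 was at 16.95 and 9.53 TPM, Cryab at 7.49 and 4.5 TPM, and Hspb6 at 4.14 and 3.17 TPM; Hspb7, Hspb3 and Cryaa were below 1 TPM in both libraries. All but Cryaa were higher in replicate 1, and the list's median log2 ratio was 0.87. Over the genes at a mean of 10 or more counts the median was -0.0026. The list's median also includes Hspb3 and Cryaa, which were below that minimum. The heart muscle markers, which include no gene of this list, were higher in the same library, and their part in this difference was not tested. In bulk tissue, fewer cells of a type cannot be told apart from less RNA per cell.

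**Figure D5:**
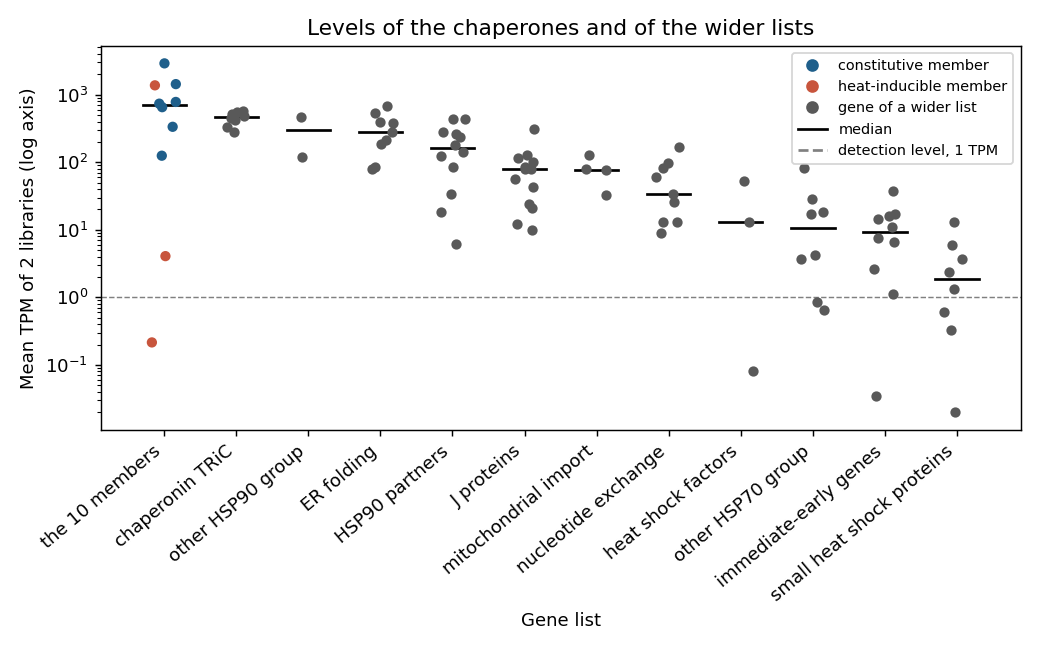
Mean TPM of the 2 libraries on a log axis for the 10 members (blue constitutive, red heat-inducible) and for each gene of the wider lists (grey), with the median of each list as a black bar and 1 TPM as a dashed line. Hspa8 lies above every gene of the wider lists, Hspa1b lies below the detection level, and the small heat shock proteins have the lowest median.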

How the data were processed

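Each library came as 1 gene table and 1 transcript table. Text notes that came with them give assembly mm10 and GENCODE M4 (the aligner and quantification tool: not given in the sources used here). Per the file headers, the authors deposited an estimated count, a TPM value, a posterior mean TPM and interval bounds for each gene, and the percent of a gene's TPM carried by each transcript. The deposited bounds, a signal on the TPM scale, have no stated level; they surround the posterior mean, so TPM lay above the upper bound in 14 of 20 member values. Spike-ins are part of the TPM total. Estimated counts and TPM of a gene sum over its transcripts, so short transcripts raise TPM.

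Gene names and positions came from GENCODE M21 (GRCm38), promoters from RefSeq. Ratios of genes used log2(TPM + 0.1). Medians over genes were taken within each library, so an SD beside a median can compare different genes. Ratios between libraries used estimated counts, unrounded, with 0.5 added and TMM factors of edgeR 4.0.16 (DESeq2 1.42.0 size factors as an alternative); a mean of 10 counts was required for the background. The calculation was tested on simulated data. Members and lists were chosen with earlier results of these data known. Named genes were all members, the 3 highest genes of each wider list, listed genes under 1 TPM in both libraries, and pseudogenes of members at a mean of 1 TPM or more. Gm26825, Hscb and Hspa1l were named after their values were seen. Alternatives were posterior means, counts, other pseudocounts, pseudogene rows (by name or a shared 100-base window), mouse-gene TPM, other scalings, other minimums and each library alone. Nothing says whether the libraries differ beyond their pools, so their spread may be partly technical.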

Additional observations from a re-analysis of the deposited data

How the results depend on the processing

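Over the pairs of genes, 133 of 144 recomputed ratios kept their direction and call. Some of these could not change. Pairs of genes without pseudogene rows kept the same value when such rows were added, and other pseudocounts hardly move genes of high level. The total is therefore not a measure of how firm the order is. On estimated counts and on full-length coding transcripts, the call did not use the deposited intervals. With 1 library, it did not use the change between libraries. Calls in these settings therefore met only a part of the rule. No paired analysis was possible because there is 1 group. On estimated counts the log2 ratio of Hspd1 over Hspe1 was 1.58, because the transcripts differ in length; it was -0.20 on full-length coding transcripts, where it narrowly exceeded the change between libraries and gained the call, and -0.27 to -0.078 with each library left out. Hspa5 over Hspe1, not ordered on TPM, was 1.76 on estimated counts, where it gained the call, -0.18 on full-length coding transcripts, and -0.022 to 0.19 with each library left out, where the change between libraries cannot be judged. Hspa8 over the summed Hspa1a and Hspa1b was 8.55 on estimated counts, and Hspa8 over Hspa4 5.34 on full-length coding transcripts. Full-length coding transcripts, an alternative added after the data were seen, also turned Hspa4 over Hsph1 to -0.61 and Hsp90aa1 over Hspa5 to -0.11. Hsp90ab1 over Hsp90aa1 was 0.054 with pseudogene rows. The summed TPM of the members was 9550 on mouse-gene TPM and 6421 on full-length coding transcripts. The constitutive median was 837, 712 and 645 TPM on mouse-gene TPM, posterior means and full-length coding transcripts, and the heat-inducible median 4.68 on mouse-gene TPM. On total counts the library ratio of Hsp90aa1 was 0.0016. Genes at least 2-fold higher in replicate 1 and replicate 2 numbered 2051 and 1436 at a mean of 1 count, and 67 and 14 at 50. Depth limits Hspa1b most, at 21.7 and 7.05 counts.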
